A study of Rattus norvegicus with 24 samples.

Results

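Rats received condensed smoke of whole cigarettes (WCSC) at 10 mg/mL, and their lungs at 6 days were compared with control lungs of the same day. The comparison was set by the sample labels alone and took 3 exposed and 3 control libraries, 6 of the 24 libraries of the series. All 6 carry the label WT and the tissue label lung, and the same series also holds 5 and 20 mg/mL at 6 days and every dose at 12 days, with 3 libraries a group. The control is labelled as control only. The vehicle, the route, the strain, the sex and the age are not given in the labels, nor do they say whether the 3 libraries of a group came from separate animals. The p-values therefore measure spread between libraries, which may be technical. The main test pooled that spread over all 24 libraries of the series, not over these 6 alone. Each library counted reads at the 3' ends of transcripts (Lexogen QuantSeq), so a level is given as CPM (counts scaled to the same library total) after TMM scaling, a scaling that evens out differences in library composition. Of 16881 distinct gene symbols, 11421 had enough counts to be tested, and the other 5460 were not tested.

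Cigarette smoke brings aromatic hydrocarbons and oxidants into the lung. The hydrocarbons bind the aryl hydrocarbon receptor, which switches on Cyp1a1, and oxidants release NRF2, which switches on genes such as Nqo1 and Hmox1. Inflammatory signals act through NF-kappaB, a transcription factor that its inhibitor, encoded by Nfkbia, holds in the cytoplasm, and NF-kappaB in turn switches on Nfkbia, so that the pathway brakes itself. C/EBP-delta, encoded by Cebpd, is a transcription factor that is induced in the acute phase of inflammation and by glucocorticoids.

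The 6 libraries held 6653416 to 9613751 counts each. They did not divide by exposure. Thinned to equal depth, exposed replicates 1 and 2 had 11582 and 11727 detected genes and control replicate 1 had 11545, and these 3 belong to the 8 libraries of the series with the fewest. Exposed replicate 3 had 12269, and control replicates 2 and 3 had 12409 and 12180. Across genes, the log2 CPM of exposed libraries correlated with those of control libraries at 0.923 to 0.973, against 0.927 to 0.954 among exposed and 0.938 to 0.971 among control libraries. The highest value, 0.973, was that of exposed replicate 3 with control replicate 2. Globin RNA took 3.66 to 5.33% of the counts of exposed libraries and 3.21 to 6.45% of those of control libraries. Lyz2, a lysozyme gene of macrophages and alveolar epithelium, took 4.20, 3.08 and 1.92% in exposed replicates 1 to 3 and 3.11, 1.94 and 2.17% in control replicates 1 to 3. Lung markers were abundant: Sftpc, the surfactant protein C gene of alveolar type II cells, averaged 9482 ± 2172 CPM in exposed and 9337 ± 1572 CPM in control libraries (SD over 3 libraries). The club cell secretoglobin gene Scgb1a1 averaged 13560 ± 2624 and 13010 ± 3959 CPM in exposed and control libraries. In whole tissue, fewer cells of a type and less RNA per cell cannot be told apart.

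The 3 exposed libraries lay below the 3 control libraries for Cebpd, Nfkbia and the lipid-synthesis genes Scd1 and Scd2, and above them for Zbtb16, Adm, Cmc1 and Mrps30. The fitted log2 fold changes of these genes ran from -1.23 for Scd1 to 2.65 for Zbtb16. No gene was called across the transcriptome by edgeR's quasi-likelihood test, the main test here, at an adjusted p of 0.05 (0 of 11421, 0%). The smallest adjusted p was 0.989. At an unadjusted p under 0.05 there were 308 genes (2.70%), 167 higher (1.46%) and 141 lower (1.23%). DESeq2 also called 0 genes, with 359 (3.14%) at an unadjusted p under 0.05. Limma voom, run with weights for library quality, called 5 genes (0.0438%): Cebpd, Ap2s1, Adam19, Ier5 and Pde4b. Its unadjusted count was 2963 (25.9%). The exposed and control libraries did not overlap in 341 higher genes (2.99%) and 369 lower genes (3.23%). Were the libraries interchangeable, a share of about 0.05 would be expected to separate each way, and both shares were below it. The unadjusted shares of edgeR (2.70%) and DESeq2 (3.14%) were below 0.05 too, while that of limma voom (25.9%) was above it. Lack of overlap in a gene thus describes its libraries and is not a test. The unadjusted edgeR count rested on single libraries: it was 1540 without exposed replicate 3, 940 without control replicate 1, 187 without control replicate 3 and 156 without exposed replicate 1, with 0 genes called each time.

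**Figure D1:**
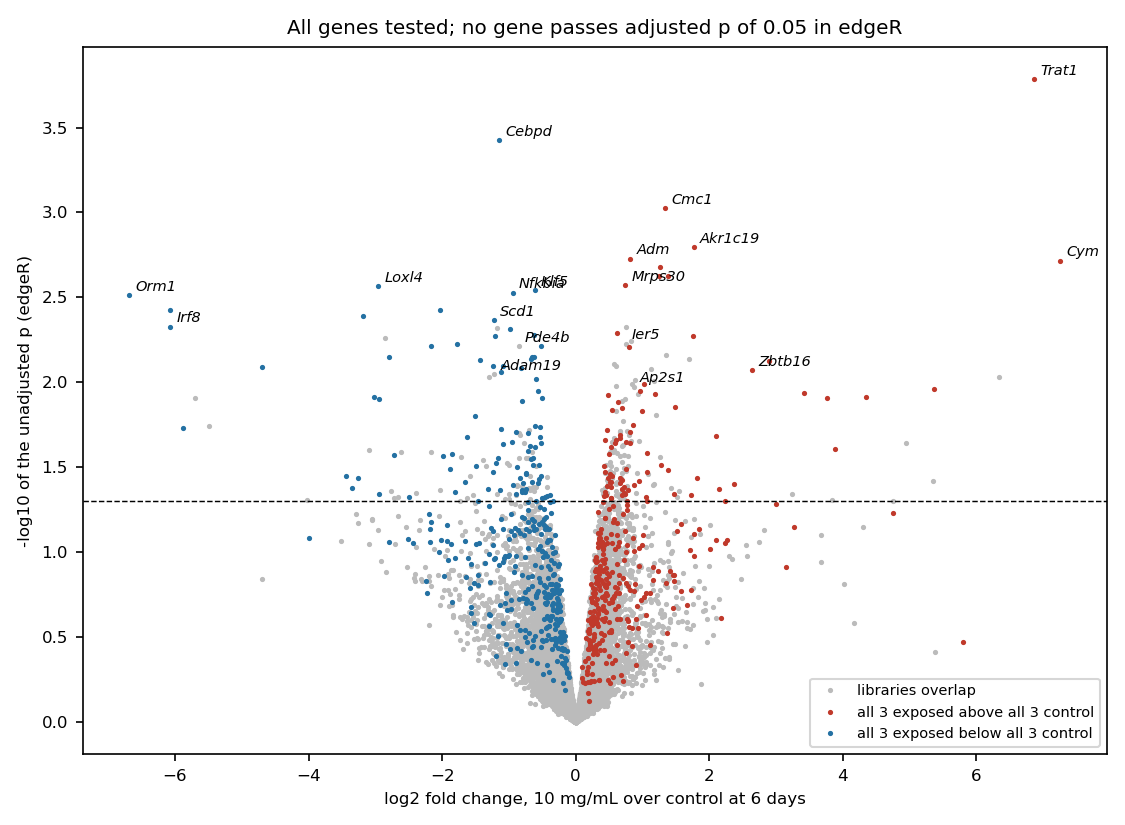
Log2 fold change of each tested gene (10 mg/mL over control, 6 days; x axis) against the negative log10 of its unadjusted edgeR p (y axis). Red and blue points are genes whose 3 exposed libraries lie all above or all below the 3 control libraries, grey points are the other genes, and the dashed line marks an unadjusted p of 0.05, which 308 of 11421 genes passed.

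Among the regulators of inflammation, Cebpd was the lower gene with the smallest edgeR p. Its levels were 119, 84.8 and 125 CPM in exposed libraries, against 201, 285 and 244 CPM in control libraries. All 3 exposed libraries lay below all 3 controls, and the log2 fold change was -1.15 (SE 0.28, 95% interval -1.72 to -0.58; unadjusted p = 0.000374, adjusted p = 0.989 by edgeR). Limma voom called it, with an adjusted p of 0.00878. Nfkbia, the inhibitor gene of NF-kappaB, stood at 855, 962 and 977 CPM in exposed libraries, against 1635, 1755 and 1990 CPM in control libraries. The groups were far apart compared with their spread, and the log2 fold change was -0.95 (SE 0.28; unadjusted p = 0.00296, adjusted p = 0.989 by edgeR). Nfkb1, which encodes the p50 subunit and its precursor, had 20.8, 29.1 and 54.1 CPM in exposed libraries, against 36.9, 80.8 and 68.3 CPM in control libraries. Here the groups overlapped, with exposed replicate 3 above control replicate 1 (log2 fold change -0.84, SE 0.34, unadjusted p = 0.0204).

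The promoters of both NF-kappaB genes are shown because each holds the letters of a kappaB site, to which NF-kappaB binds. The sequences are from RefSeq (build GRCr8, not the rn6 build named for the counts), 250 bases before to 50 bases after the start of the gene, 5' to 3' on the gene's strand. Capitals mark GGANTTTCC on either strand.
Nfkbia promoter (chr6:78597023-78597322, minus strand): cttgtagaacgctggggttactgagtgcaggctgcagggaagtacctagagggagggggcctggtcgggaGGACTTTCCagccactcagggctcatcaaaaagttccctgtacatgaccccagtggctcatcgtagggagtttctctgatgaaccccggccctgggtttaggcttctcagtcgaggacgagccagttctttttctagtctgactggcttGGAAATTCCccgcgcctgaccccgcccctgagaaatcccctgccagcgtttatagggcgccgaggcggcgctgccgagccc
Nfkb1 promoter (chr2:226805413-226805712, minus strand): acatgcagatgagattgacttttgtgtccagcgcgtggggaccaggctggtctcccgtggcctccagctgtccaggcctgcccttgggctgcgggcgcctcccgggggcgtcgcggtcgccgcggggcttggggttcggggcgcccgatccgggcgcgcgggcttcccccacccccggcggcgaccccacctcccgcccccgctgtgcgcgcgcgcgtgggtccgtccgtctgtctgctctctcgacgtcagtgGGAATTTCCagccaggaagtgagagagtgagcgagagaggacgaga
The capitals start at bases -180 and -31 in Nfkbia, counted from the start of the gene, and at base 5 in Nfkb1. Of 33465 promoters of this length, 1.28% hold these letters. Of the 73 genes whose changes were followed through every setting, 53 matched a promoter by symbol, and 3 of those held the letters: Nfkbia, Nfkb1 and the chemokine gene Cxcl1. A match describes the letters only.

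The other genes of this pathway did not share one direction. In a list of cytokines and NF-kappaB feedback genes, 16 members were tested and none was called by edgeR. Of these, 10 had a fitted fold change above 0 and 6 below, with a median log2 fold change of 0.09 against 0.00096 over all genes tested, of which 50.1% were above 0 and 49.9% below. Il1b, the interleukin-1 beta gene, had 91.5, 66.6 and 42.2 CPM in exposed libraries, against 54.7, 26.4 and 23.9 CPM in control libraries (log2 fold change 0.93, SE 0.34, unadjusted p = 0.0117). The groups overlapped, since exposed replicate 3 lay below control replicate 1. Ccl2, a monocyte chemokine, had 5.62, 7.09 and 7.15 CPM in exposed libraries, against 2.04, 1.76 and 3.10 CPM in control libraries. All 3 exposed libraries were higher, at a low level with a wide error (log2 fold change 1.52, SE 0.81, unadjusted p = 0.0751). That error pools all groups, and Ccl2 had 8.53, 0.48 and 20.8 CPM at 20 mg/mL at 6 days. Tnf averaged 1.83 ± 0.51 CPM in exposed and 1.58 ± 0.95 CPM in control libraries. Cxcl1, a neutrophil chemokine, had 3.59, 3.11 and 27.5 CPM in exposed libraries, against 4.46, 7.05 and 11.1 CPM in control libraries. Exposed replicate 3 alone put the exposed mean above that of the controls.

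**Figure D2:**
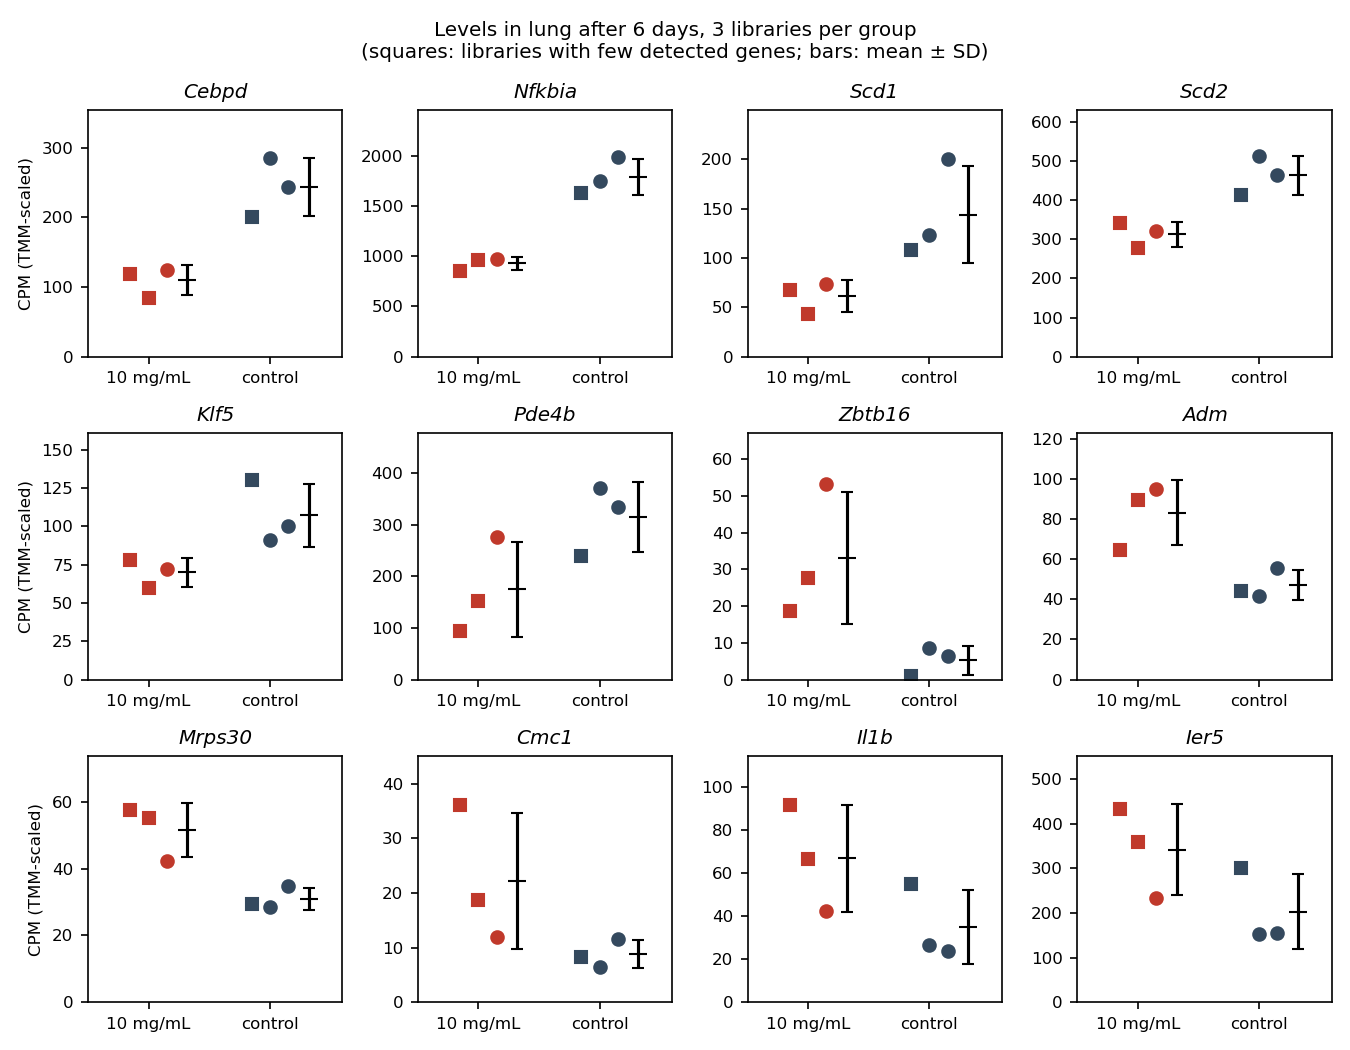
CPM (y axis, from 0) of 12 genes in the 3 exposed libraries (red, left) and the 3 control libraries (dark, right) at 6 days. Squares are libraries with few detected genes and circles the others, and black bars are the mean ± SD. Cebpd, Nfkbia, Scd1, Scd2 and Klf5 show no overlap with exposed libraries lower, and Zbtb16, Adm, Mrps30 and Cmc1 none with exposed libraries higher, while Pde4b, Il1b and Ier5 overlap.

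Most genes that make fatty acids and cholesterol had fitted fold changes below 0. Of 18 members tested, 15 had a fitted fold change below 0 and 3 above, 2 were lower at an unadjusted p under 0.05 (1.23% of all genes), and in 5 the exposed libraries lay below all controls (3.23% of all genes). None was called by edgeR, and the median log2 fold change was -0.26. Scd1, Scd2, Fasn and Srebf1 were among the 5. Scd1, a desaturase that makes monounsaturated fatty acids, had 67.5, 43.3 and 73.2 CPM in exposed libraries, against 108, 123 and 200 CPM in control libraries. The highest exposed library stayed under the lowest control (log2 fold change -1.23, SE 0.39, unadjusted p = 0.0043, adjusted p = 0.989 by edgeR). The related desaturase gene Scd2 had 341, 277 and 321 CPM in exposed libraries, against 414, 513 and 465 CPM in control libraries. Its difference was smaller, with a log2 fold change of -0.57 (SE 0.21, unadjusted p = 0.0113). Fasn, the fatty acid synthase gene, had 238, 249 and 207 CPM in exposed libraries, against 255, 292 and 345 CPM in control libraries. Srebf1, a transcription factor gene that drives lipid synthesis, had 37.5, 45.7 and 47.6 CPM in exposed libraries, against 56.4, 57.5 and 60.2 CPM in control libraries. Neither overlapped, and the unadjusted p was 0.0932 for Fasn and 0.0854 for Srebf1. Fasn and Srebf1 were singled out after their values were seen.

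The promoter of Scd2 is shown because such boxes lie in many promoters of lipid-synthesis genes, where they bind NF-Y beside SREBP. It is again from RefSeq (GRCr8), with the CCAAT letters in capitals.
Scd2 promoter (chr1:253118127-253118426, plus strand): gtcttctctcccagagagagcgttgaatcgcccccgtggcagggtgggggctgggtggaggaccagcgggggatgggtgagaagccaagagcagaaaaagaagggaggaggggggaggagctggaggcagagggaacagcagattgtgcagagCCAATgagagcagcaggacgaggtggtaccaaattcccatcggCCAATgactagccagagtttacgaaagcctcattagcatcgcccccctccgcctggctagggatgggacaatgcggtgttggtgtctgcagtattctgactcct
The letters start at bases -97 and -54. On either strand they stand in 37.5% of all promoters of this length and in 25 of the 53 matched genes, so they do not set Scd2 apart.

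Mfsd2a, a transporter of lysophospholipids, had 4.07, 0.50 and 2.10 CPM in exposed libraries, against 6.89, 5.29 and 15.5 CPM in control libraries, without overlap (log2 fold change -2.04, SE 0.63, unadjusted p = 0.00375). Abca1, the cholesterol exporter, averaged 4.38 ± 1.99 CPM in exposed and 10.7 ± 4.65 CPM in control libraries, with overlap (log2 fold change -1.29, SE 0.45, unadjusted p = 0.00926). Abca1 had the smallest p in the lipid-laden macrophage list, in which 15 of 21 tested members were below 0 and 6 above, with a median of -0.18. Retnla, a secreted protein gene of type 2 immunity, had 235, 161 and 85.3 CPM in exposed libraries, against 425, 450 and 642 CPM in control libraries. The groups did not overlap, though the error was wide (log2 fold change -1.66, SE 0.75, unadjusted p = 0.0388). This error too pools all groups, and Retnla had 757, 342 and 2200 CPM at 20 mg/mL at 6 days. In its list, immunoglobulin E and type 2 immunity, 6 of 10 tested members were below 0 and 4 above.

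Of the 12 lower genes chosen for the smallest p without overlap, the 4 described above are Cebpd, Nfkbia, Scd1 and Mfsd2a. Klf5, a transcription factor gene of airway epithelium, had 77.9, 59.8 and 72.1 CPM in exposed libraries, against 130, 91.1 and 99.9 CPM in control libraries (log2 fold change -0.62, SE 0.18). Pola1, the catalytic subunit gene of DNA polymerase alpha, averaged 29.7 ± 3.11 CPM in exposed and 45.6 ± 7.49 CPM in control libraries. Slc35c2, a gene of the nucleotide-sugar transporter family, averaged 10.6 ± 3.18 and 21.0 ± 3.95 CPM in exposed and control libraries. The unadjusted edgeR p was 0.00285 for Klf5, 0.00529 for Pola1 and 0.00487 for Slc35c2, and every adjusted p was 0.989. The remaining 5 were close to the detection limit. Loxl4, a lysyl oxidase that links collagen and elastin, averaged 0.50 ± 0.54 CPM in exposed and 4.04 ± 1.25 CPM in control libraries. Sntg2, a syntrophin gene, averaged 0.24 ± 0.21 and 2.42 ± 1.46 CPM in exposed and control libraries. Orm1 (an acute-phase plasma protein), Kcnk10 (a potassium channel) and Irf8 (a transcription factor of monocytes and dendritic cells) had 0 counts in the exposed libraries together, against 42, 27 and 26 counts in the control libraries together. Against a floor of 3 counts over the exposed libraries, the pooled counts were 14.8-fold, 9.49-fold and 9.14-fold lower. These ratios leave out the spread between libraries. Limma voom gave log2 fold changes of -3.16, -2.89 and -4.51, weaker than these ratios for Orm1 and Kcnk10. Orm1 stood at 4.46, 0.27 and 0.70 CPM in the control libraries and Kcnk10 at 2.30, 0.14 and 1.13 CPM, both highest in control replicate 1.

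Among the higher genes, Zbtb16 had a large ratio. Zbtb16 encodes a zinc finger transcription factor that glucocorticoids induce. It had 18.6, 27.7 and 53.3 CPM in exposed libraries, against 0.89, 8.54 and 6.47 CPM in control libraries. Even the lowest exposed library was above the highest control, and the log2 fold change was 2.65 (SE 0.92, 95% interval 0.75 to 4.55; unadjusted p = 0.00848, adjusted p = 0.989 by edgeR). With 2 surrogate variables in the fit, edgeR called it at an adjusted p of 0.0465. Fkbp5, a co-chaperone gene of the glucocorticoid receptor, had 62.9, 49.4 and 63.8 CPM in exposed libraries, against 27.8, 27.0 and 48.1 CPM in control libraries. It too did not overlap, with a log2 fold change of 0.78 (SE 0.39, unadjusted p = 0.0563), and it was singled out after its values were seen. The 13 tested members of the glucocorticoid-induced list did not move one way. Of these, 5 were above 0 and 8 below, and 2 each lay wholly above and wholly below the controls, beside 2.99% and 3.23% of all genes. The 2 wholly below were Cebpd and Tsc22d3. Tsc22d3 had 253, 320 and 321 CPM in exposed libraries, against 340, 396 and 408 CPM in control libraries. Its log2 fold change was -0.35 (SE 0.25, unadjusted p = 0.166 by edgeR), and it was named after its values were seen. Ddit4, an inhibitor of mTORC1 signalling, is a lower member too, past an unadjusted p of 0.05 (log2 fold change -1.18, SE 0.38, unadjusted p = 0.00482). It had 52.1, 32.2 and 23.1 CPM in exposed libraries, against 50.9, 90.5 and 103 CPM in control libraries, so that exposed replicate 1 lay just above control replicate 1.

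Adm encodes adrenomedullin, a peptide that widens vessels. It had 64.5, 89.5 and 94.96 CPM in exposed libraries, against 44.0, 41.6 and 55.3 CPM in control libraries. The exposed libraries were all higher (log2 fold change 0.82, SE 0.23, unadjusted p = 0.00187, adjusted p = 0.989 by edgeR). A pair of genes of mitochondrial protein complexes were among the 12 higher genes without overlap. Cmc1, an assembly factor gene of cytochrome c oxidase, had 36.0, 18.8 and 11.9 CPM in exposed libraries, against 8.29, 6.51 and 11.5 CPM in control libraries. The exposed replicate 3 exceeded the top control only narrowly (log2 fold change 1.34, SE 0.35, unadjusted p = 0.000939). Mrps30, a gene of the mitochondrial ribosome, had 57.4, 55.1 and 42.4 CPM in exposed libraries, against 29.5, 28.5 and 34.8 CPM in control libraries (log2 fold change 0.74, SE 0.22, unadjusted p = 0.00267). Akr1c19, an aldo-keto reductase gene, averaged 8.67 ± 2.51 CPM in exposed and 2.55 ± 1.12 CPM in control libraries. Cdkn2c, an inhibitor gene of cyclin-dependent kinases, averaged 25.4 ± 4.78 and 14.6 ± 2.86 CPM in exposed and control libraries. Ninj1, whose product ruptures the plasma membrane of dying cells, averaged 34.4 ± 8.18 and 22.4 ± 1.18 CPM in exposed and control libraries. The ubiquitin ligase gene Trim16 averaged 7.82 ± 4.12 and 1.04 ± 0.78 CPM in exposed and control libraries, the sperm ion channel gene Catsper2 6.03 ± 2.40 and 1.78 ± 1.23 CPM, the zinc finger gene Zfp956 9.04 ± 1.07 and 3.76 ± 0.57 CPM, and Ydjc 12.7 ± 5.70 and 4.85 ± 0.81 CPM. The unadjusted edgeR p of these 7 genes ran from 0.0016 for Akr1c19 to 0.0075 for Trim16.

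The other 2 of the 12 were near 0 in control lung at 6 days. Trat1, an adaptor gene of the T cell receptor, had 2.87, 2.74 and 0.56 CPM in exposed libraries and 0 in each control library. Its 50 counts over the exposed libraries, against 0 over the controls, were 15.8-fold higher against a floor of 3 counts. That ratio pools the counts and leaves out the spread between libraries. It had the smallest edgeR p of all genes, 0.000164 unadjusted and 0.989 adjusted. Of 22 tested T and NK cell genes, 12 were above 0 and 10 below, and Trat1 alone was past an unadjusted p of 0.05, beside 2.70% of all genes. Cym, the gene of the milk-clotting protease chymosin, had 13.9, 13.1 and 1.82 CPM in exposed libraries and 1 count in all control libraries together. The ratio of its 234 to 1 counts was 222 after scaling, with a 95% counting interval of 39.5 to 8810. Both ratios rest on the 6-day controls. In the controls at 12 days, Trat1 had 0.40, 2.17 and 1.25 CPM and Cym 2.63, 0 and 0 CPM.

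The 4 genes that limma voom called beside Cebpd had overlapping libraries. Ap2s1, the small subunit gene of the clathrin adaptor AP-2, had 167, 219 and 144 CPM in exposed libraries, against 168, 64.1 and 57.4 CPM in control libraries. Control replicate 1 stood with the exposed libraries (voom adjusted p = 0.00878, edgeR log2 fold change 0.87, SE 0.31). Ier5, an immediate-early gene, had 433, 360 and 233 CPM in exposed libraries, against 300, 154 and 156 CPM in control libraries (voom adjusted p = 0.0115, edgeR log2 fold change 0.75, SE 0.25). Adam19, a membrane metalloprotease gene, had 16.0, 16.0 and 45.5 CPM in exposed libraries, against 35.3, 80.4 and 64.5 CPM in control libraries (voom adjusted p = 0.0115, edgeR log2 fold change -1.22, SE 0.43). Pde4b, a phosphodiesterase gene that ends cAMP signals, had 94.7, 153 and 276 CPM in exposed libraries, against 240, 371 and 335 CPM in control libraries (voom adjusted p = 0.0172, edgeR log2 fold change -0.85, SE 0.28). In each of the 4, the overlap came from exposed replicate 3 or control replicate 1. Voom gave these libraries the low weights of 0.441 and 0.372, against 1.84 for exposed replicate 2 and 2.63 for control replicate 2. Exposed replicate 1 also had a low weight, 0.571, while control replicate 3 had 1.7. The exposed side of the voom calls, that of Cebpd included, thus rested mostly on exposed replicate 2. Of 30 tested immediate-early and early response genes, 11 were above 0 and 19 below. In that list 2 members lay wholly above the controls and 2 wholly below, beside 2.99% and 3.23% of all genes. Klf6 and Csrnp1 were the lower ones, averaging 410 ± 27.2 and 24.8 ± 5.23 CPM in exposed libraries, against 505 ± 22.5 and 36.3 ± 1.39 CPM in control libraries, and they were named after their values were seen. Klf10 and Ier3 were the higher ones, averaging 65.5 ± 18.3 and 108 ± 13.4 CPM in exposed libraries, against 41.4 ± 3.58 and 71.9 ± 12.9 CPM in control libraries (unadjusted p = 0.0212 and 0.0228 by edgeR). Areg, the amphiregulin gene of epithelial repair, averaged 5.01 ± 1.96 CPM in exposed and 11.1 ± 3.59 CPM in control libraries, without overlap (unadjusted p = 0.0429 by edgeR).

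The usual marker genes of smoke exposure showed no difference beyond their spread. Cyp1a1 had 8.74, 3.98 and 15.3 CPM in exposed libraries, against 13.0, 20.9 and 2.67 CPM in control libraries. Its 95% interval, -1.91 to 1.13 on the log2 scale, covers changes of over 2-fold each way. Of 4 tested targets of the aryl hydrocarbon receptor, 3 were below 0 and 1 above. Cyp1a2, Cyp1b1 and Ahrr were among those with too few counts for a test. Nqo1 averaged 43.3 ± 7.93 CPM in exposed and 42.7 ± 9.13 CPM in control libraries, and its 95% interval was -0.42 to 0.47. Hmox1, the heme oxygenase gene, averaged 52.6 ± 13.9 and 66.2 ± 26.7 CPM in exposed and control libraries (log2 fold change -0.33, SE 0.34). None of 28 tested NRF2 antioxidant genes passed an unadjusted p of 0.05, against 2.70% of all genes. Of these 17 were above 0 and 11 below, with a median of 0.02. Catalase (Cat) and the ferritin gene Fth1 had the smallest p of that list, 0.0818 and 0.139. Fth1 had 3472, 2313 and 1608 CPM in exposed libraries, against 2529, 956 and 1600 CPM in control libraries.

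**Figure D3:**
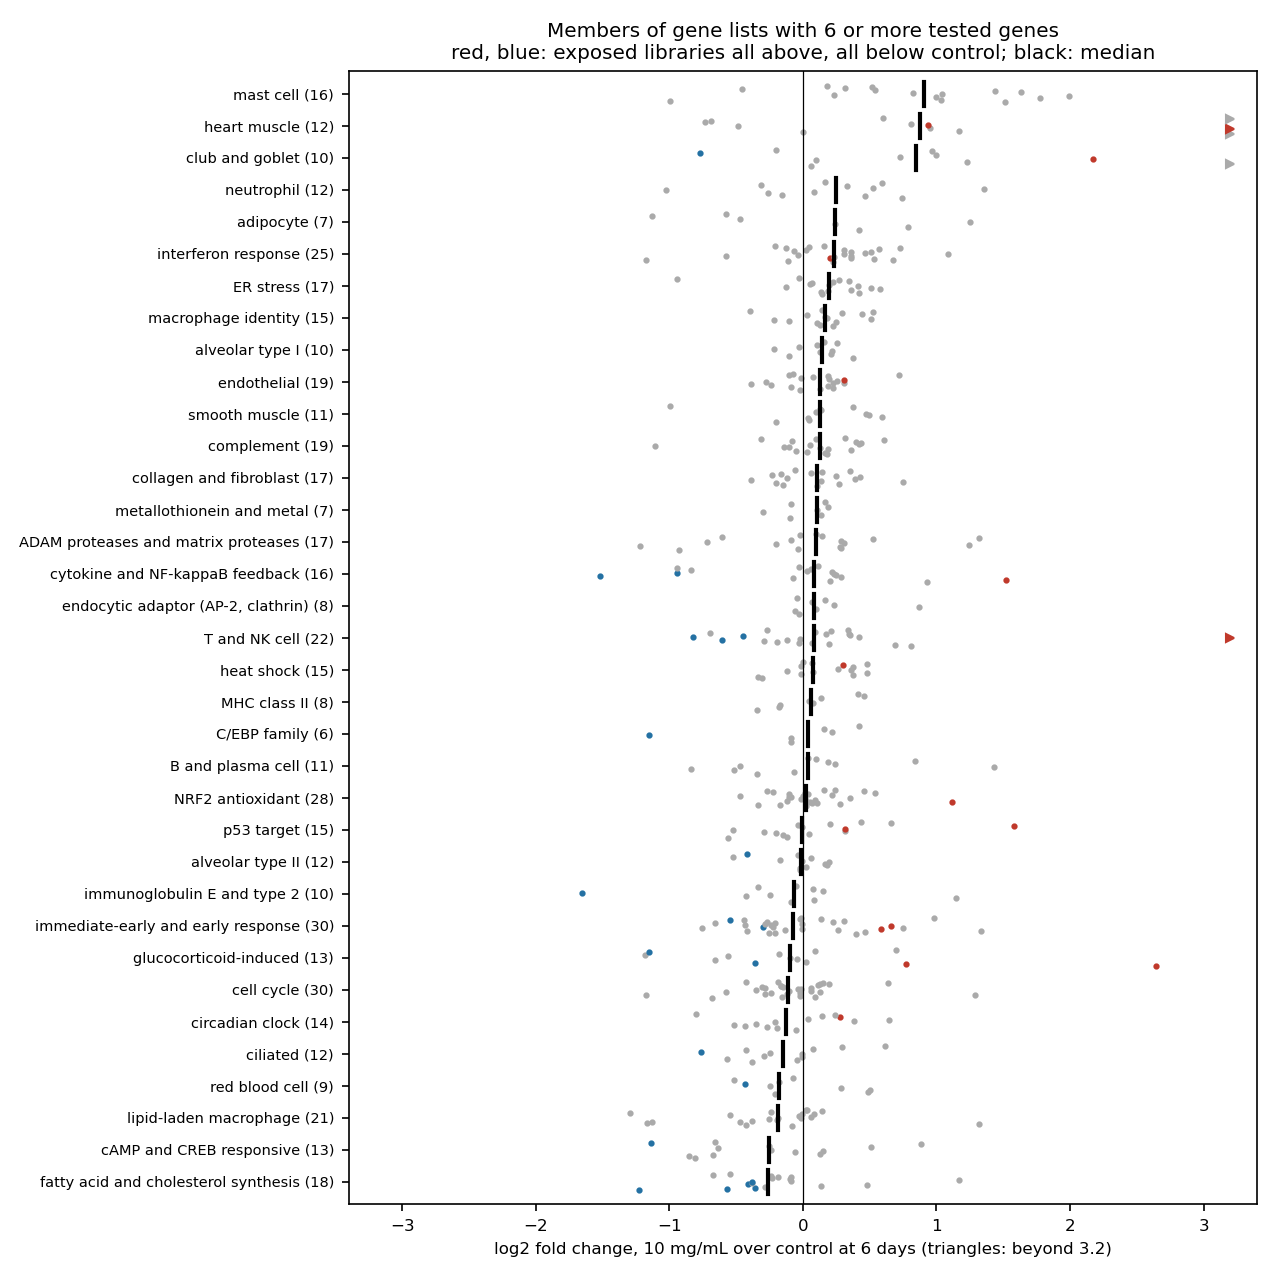
Log2 fold change (10 mg/mL over control, 6 days; x axis) of each tested member of the gene lists with 6 or more tested members (y axis, number in brackets), sorted by median (black bar). Red and blue points lie wholly above or below the controls, and grey points overlap. The fatty acid and cholesterol synthesis list has a median of -0.26 with 5 blue points, and the mast cell list a median of 0.91 with every point grey.

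Mast cell genes had the highest median of the lists described here, with a wide spread between libraries. Of 16 tested members 14 were above 0 and 2 below, and the median log2 fold change was 0.91. No member was free of overlap, and 1 passed an unadjusted p of 0.05, beside 2.70% of all genes. The median fell to 0.0746 without exposed replicate 1 and was 0.35 with 2 surrogate variables in the fit. Cpa3, the mast cell carboxypeptidase gene, had 154, 39.0 and 17.4 CPM in exposed libraries, against 39.0, 24.8 and 9.85 CPM in control libraries (log2 fold change 1.51, SE 0.72, unadjusted p = 0.0471). Fcer1a, a chain of the high-affinity IgE receptor, had 21.4, 6.46 and 3.23 CPM in exposed libraries, against 5.49, 2.98 and 0.56 CPM in control libraries. The protease gene Tpsb2 had 125, 27.8 and 21.2 CPM in exposed libraries, against 62.8, 16.7 and 7.60 CPM in control libraries. Exposed replicate 1 was the highest in each of these, and control replicate 1 the highest control, and both are libraries with few detected genes. The same order held for Mcpt9, Mcpt10, Ms4a2 and Tpsab1. Kit and Gata2 were the 2 members below 0, with log2 fold changes of -0.996 and -0.45. Kit had 0.60, 0.75 and 1.82 CPM in exposed libraries, against 0, 3.39 and 2.96 CPM in control libraries. The log2 fold change was 0.18 for Srgn, 0.24 for Cma1, 0.31 for Hpgds, 0.52 for Slc18a2 and 0.54 for Hdc. It was 0.82 for Mcpt2 and 1.04 for Mcpt1. Summed over the list, the levels were 773, 388 and 433 CPM in exposed libraries, against 481, 393 and 393 CPM in control libraries. That sum includes Srgn and Gata2, which other lung cells express too, and Mcpt4, another protease gene of the list, had no counts. Within the libraries with few detected genes the median log2 ratio of the list was 0.71, and within the others 0.18. Without exposed replicate 1, Tpsb2 turned to -0.24 and Cpa3 had 0.20. Without the 8 libraries with few detected genes, which left exposed replicate 3 alone in its group, Cpa3 had 0.0021. The part of gene detection in the mast cell values was not tested. How the counting divided reads between the closely related Mcpt and tryptase genes is not given in the sources used here, so the levels of single members are uncertain.

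In other immune lists no gene was called by edgeR. Fcnb, the ficolin gene of myeloid cells, had 217, 215 and 74.6 CPM in exposed libraries, against 89.7, 37.9 and 70.4 CPM in control libraries (log2 fold change 1.36, SE 0.46, unadjusted p = 0.00687). It was the 1 of 12 tested neutrophil genes past an unadjusted p of 0.05, against 2.70% of all genes. In that list 8 members were above 0 and 4 below, with a median of 0.25. S100a8, the abundant calprotectin gene of neutrophils, had 316, 219 and 90.1 CPM in exposed libraries, against 251, 55.3 and 67.8 CPM in control libraries. Exposed and control libraries overlapped for S100a8 too. Cxcr2 had no counts. Of 15 tested macrophage identity genes, 12 were above 0 and 3 below, with a median of 0.16, against 50.1% above 0 in all genes. None of them passed an unadjusted p of 0.05. Mmp12, the macrophage elastase gene linked to emphysema, had 6.34, 4.10 and 0.56 CPM in exposed libraries, against 2.42, 0.14 and 1.83 CPM in control libraries (log2 fold change 1.32, SE 1.07). Of 25 tested interferon response genes, 18 were above 0 and 7 below, with a median of 0.23. Oas1a had the smallest p of them, 0.0349, with 22.4, 13.2 and 4.35 CPM in exposed libraries, against 6.12, 3.93 and 8.73 CPM in control libraries. Without the 8 libraries that had the fewest detected genes, the medians turned to -0.32 for the neutrophil, -0.27 for the macrophage identity and -0.40 for the interferon response list. That setting left exposed replicate 3 alone against control replicates 2 and 3.

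No gene of the stress and growth lists was called by edgeR. Of 17 tested ER stress genes, 14 were above 0 and 3 below, with a median of 0.19. Herpud1, a gene of ER-associated protein degradation, had 361, 325 and 214 CPM in exposed libraries, against 260, 171 and 172 CPM in control libraries (log2 fold change 0.58, SE 0.24, unadjusted p = 0.0249). Heat shock genes were 9 above 0 and 6 below (median 0.08), and p53 target genes 7 above and 8 below (median -0.0029). Of 30 tested cell cycle genes, 10 were above 0 and 20 below, with a median of -0.11. Mki67, the proliferation marker, had 11.3, 15.3 and 17.8 CPM in exposed libraries, against 30.0, 23.4 and 17.6 CPM in control libraries (log2 fold change -0.68, SE 0.30, unadjusted p = 0.0354). Exposed replicate 3 and control replicate 3 nearly coincided. Alveolar type II genes were split, with 5 of 12 tested members above 0 and 7 below. Of 10 tested club and goblet cell genes, 8 were above 0 and 2 below, but their median ratio was 1.64 among libraries with few detected genes and -0.47 among the others. The heart muscle genes Myh7, Myl2, Myl3 and Nppb had no counts in any of the 6 libraries. The heart muscle list summed to 369, 393 and 180 CPM in exposed libraries, against 302, 129 and 172 CPM in control libraries. Most of that was Ankrd1 and Actc1. Of 12 tested members, 8 were above 0 and 3 below, with a median of 0.87. The exposed libraries lay wholly above the controls in 2 of them, Actc1 and Myl7, beside 2.99% of all genes. Myl7, named after its values were seen, had 0.12, 2.24 and 0.56 CPM in exposed libraries and 0 in each control library. Actc1 had 76.5, 135 and 75.3 CPM in exposed libraries, against 33.8, 41.2 and 74.7 CPM in control libraries.

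Set beside the other doses of the same day, 10 mg/mL lay between 5 and 20 mg/mL for Cebpd. Control libraries averaged 243 ± 41.9 CPM and those of 5 mg/mL 228 ± 87.3 CPM, while 10 mg/mL averaged 110 ± 21.6 CPM and 20 mg/mL 76.1 ± 14.1 CPM (SD over 3 libraries). Tested directly, 10 mg/mL was lower than 5 mg/mL by a log2 difference of -1.06 (SE 0.27, unadjusted p = 0.000821, adjusted p = 1 by edgeR), and the difference from 20 mg/mL was 0.53 (SE 0.27, unadjusted p = 0.0682). Nfkbia had 1793 ± 181 CPM in control libraries, 931 ± 66.4 at 10 mg/mL, and individual values of 2313, 823 and 1114 at 5 mg/mL and of 727, 979 and 701 at 20 mg/mL. Zbtb16 averaged 5.30 ± 3.96 CPM in control libraries and 33.2 ± 18.0 at 10 mg/mL, and it was between 63.4 and 65.2 CPM in each library at 20 mg/mL. At 5 mg/mL the libraries were far apart, with 0.49, 3.00 and 49.3 CPM of Zbtb16. Its difference between 10 and 20 mg/mL was -0.96 (SE 0.84, unadjusted p = 0.265). Adm was 0.60 higher on the log2 scale at 10 than at 5 mg/mL and 0.63 higher than at 20 mg/mL (unadjusted p = 0.0164 and 0.0127). Both doses share their controls with 10 mg/mL, so their fold changes against control are not independent of it.

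No gene differed between 10 and 5 mg/mL by edgeR at an adjusted p of 0.05 (0%), with 274 genes (2.40%) at an unadjusted p under 0.05. DESeq2 and limma voom called 0 as well. Beside Cebpd, the smallest p without overlap belonged to Gpn3, a small GTPase-family gene, and Serhl2, a serine hydrolase-like gene. Gpn3 had 0 counts in all 3 libraries of 10 mg/mL, against 1.07 to 1.18 CPM at 5 mg/mL. Serhl2 had 23.8, 29.8 and 17.5 CPM at 10 mg/mL, against 13.2, 3.39 and 11.2 CPM at 5 mg/mL. Against control its log2 fold change was 0.03 (SE 0.39), and the libraries of 5 mg/mL lay below all 3 controls too.

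Against 20 mg/mL, edgeR called 0 genes (0%), with 720 (6.30%) at an unadjusted p under 0.05. DESeq2 called 4 (0.0351%): Sept6, Duox1, Mtrr and Scd1, with adjusted p of 0.00215, 0.0132, 0.025 and 0.0272, and limma voom called 0. Sept6, a septin of the cytoskeleton, had 13.5, 10.7 and 15.0 CPM at 10 mg/mL, against 30.9, 30.1 and 29.4 CPM at 20 mg/mL (edgeR log2 difference -1.20, SE 0.23). Scd1 had 61.3 ± 15.9 CPM at 10 mg/mL, against 199 ± 25.8 CPM at 20 mg/mL. Its level at 20 mg/mL thus stood above that of the middle dose and within reach of the controls (edgeR log2 difference between doses -1.70, SE 0.39, adjusted p = 0.535). Mtrr, the methionine synthase reductase gene, had 29.6, 29.5 and 22.7 CPM at 10 mg/mL, against 14.4, 8.21 and 13.1 CPM at 20 mg/mL. Duox1, an epithelial oxidase that makes hydrogen peroxide, had 0.96, 4.35 and 3.65 CPM at 10 mg/mL, against 5.89, 11.6 and 60.6 CPM at 20 mg/mL, and 1 library of 20 mg/mL stood far above the rest. Duox1 was named after its values were seen.

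**Figure D4:**
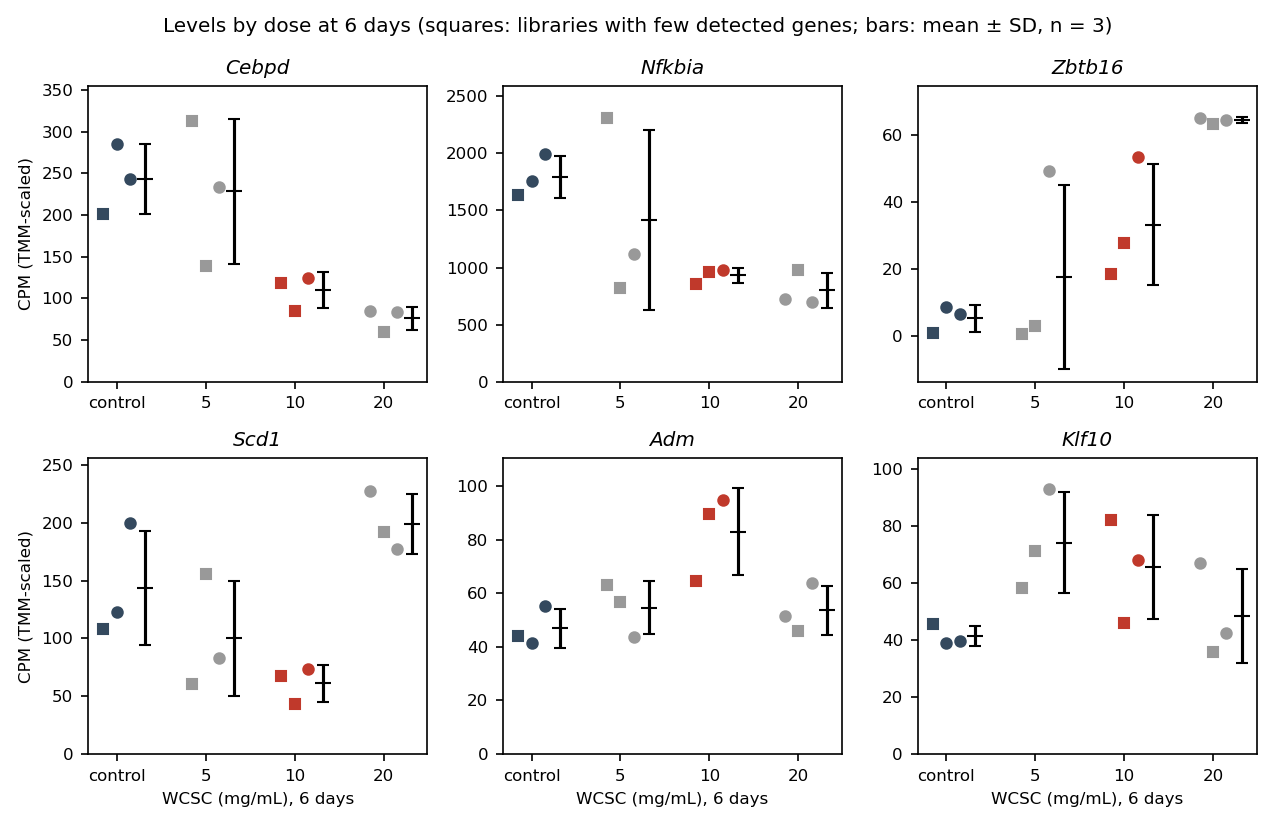
CPM (y axis) of 6 genes in control lung and at 5, 10 and 20 mg/mL (x axis), all at 6 days, with 3 libraries a group. Squares are libraries with few detected genes, circles the others, red points are 10 mg/mL, dark points control, and black bars the mean ± SD. Cebpd is low at 10 and 20 mg/mL, Zbtb16 is highest at 20 mg/mL, and Scd1 is lowest at 10 mg/mL while its 3 libraries at 20 mg/mL lie between 178 and 228 CPM.

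The effect at 6 days was set against that of the same dose at 12 days, with the controls of each day, in 1 interaction test. EdgeR called 0 genes (0%), with 213 (1.86%) at an unadjusted p under 0.05, and DESeq2 and limma voom called 0 too. Of the 12 higher genes chosen without overlap at 6 days, 5 had a fitted fold change above 0 at 12 days. Of the 12 lower genes, 10 were below 0 at 12 days. The median log2 fold change over all tested genes at 12 days was 0.0076. Zbtb16 was 26.4, 27.4 and 21.4 CPM at 10 mg/mL at 12 days, against 6.06, 3.43 and 4.72 CPM in the controls of that day, a log2 fold change of 2.40 beside 2.65 at 6 days. The difference between days was 0.24 (SE 1.27, unadjusted p = 0.849). Nfkbia had a log2 fold change of -0.69 at 12 days beside -0.95 at 6 days (difference -0.25, SE 0.40, unadjusted p = 0.534). Cebpd had -0.44 at 12 days beside -1.15 at 6 days (difference -0.72, SE 0.38, unadjusted p = 0.0762). Hmox1 had the opposite sign, with 1.31 at 12 days beside -0.33 at 6 days (difference -1.65, SE 0.49, unadjusted p = 0.00256, adjusted p = 1 by edgeR). It had 112, 107 and 56.8 CPM at 10 mg/mL at 12 days, against 42.7, 40.3 and 28.3 CPM in the controls. The smallest p without overlap between the 10 mg/mL libraries of the 2 days belonged to Orm1, Cfc1 and Ccdc117. Cfc1, a gene of the EGF-CFC family, had 11.6, 6.34 and 2.10 CPM at 10 mg/mL at 6 days, against 0.89, 2.44 and 2.82 CPM in the controls. At 12 days it had 1.84, 1.84 and 1.77 CPM at 10 mg/mL, against 4.04, 5.42 and 2.64 CPM in the controls. Ccdc117 averaged 3.74 ± 0.91 CPM at 10 mg/mL at 6 days, against 7.95 ± 0.75 CPM in the controls. At 12 days it averaged 7.99 ± 1.22 CPM at 10 mg/mL, against 4.79 ± 1.93 CPM in the controls. Orm1, at 0 at 10 mg/mL at 6 days, had 8.37, 1.67 and 1.36 CPM at 10 mg/mL at 12 days, against 0.20, 1.81 and 0.56 CPM in the controls of that day.

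Because exposed replicates 1 and 2 and control replicate 1 shared low gene detection, exposed lung was also compared with control lung within these 3 libraries and within the other 3. Ratios are log2 of mean CPM + 0.5. For Cebpd the ratio was -0.98 in the first set and -1.08 in the second, and for Nfkbia -0.85 and -0.94. Scd1 had -0.96 and -1.14, Adm 0.80 and 0.96, and Zbtb16 4.08 and 2.75. Each set leaves 1 library alone in an arm, control replicate 1 in the first and exposed replicate 3 in the second, so these ratios have no spread behind them and no test. Cmc1 had 1.67 in the first set and 0.38 in the second, Ydjc 1.82 and 0.31, Catsper2 3.13 and 0.48, Cpa3 1.29 and 0.01, and Pde4b -0.95 and -0.35. Ap2s1 had 0.20 and 1.23. The part of gene detection in these ratios was not tested. For the 24 genes chosen without overlap the sign in both sets is fixed by that choice. Of the 12 higher genes, 10 had the larger ratio among libraries with few detected genes, and of the 12 lower genes 7 had the larger fall there.

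**Figure D5:**
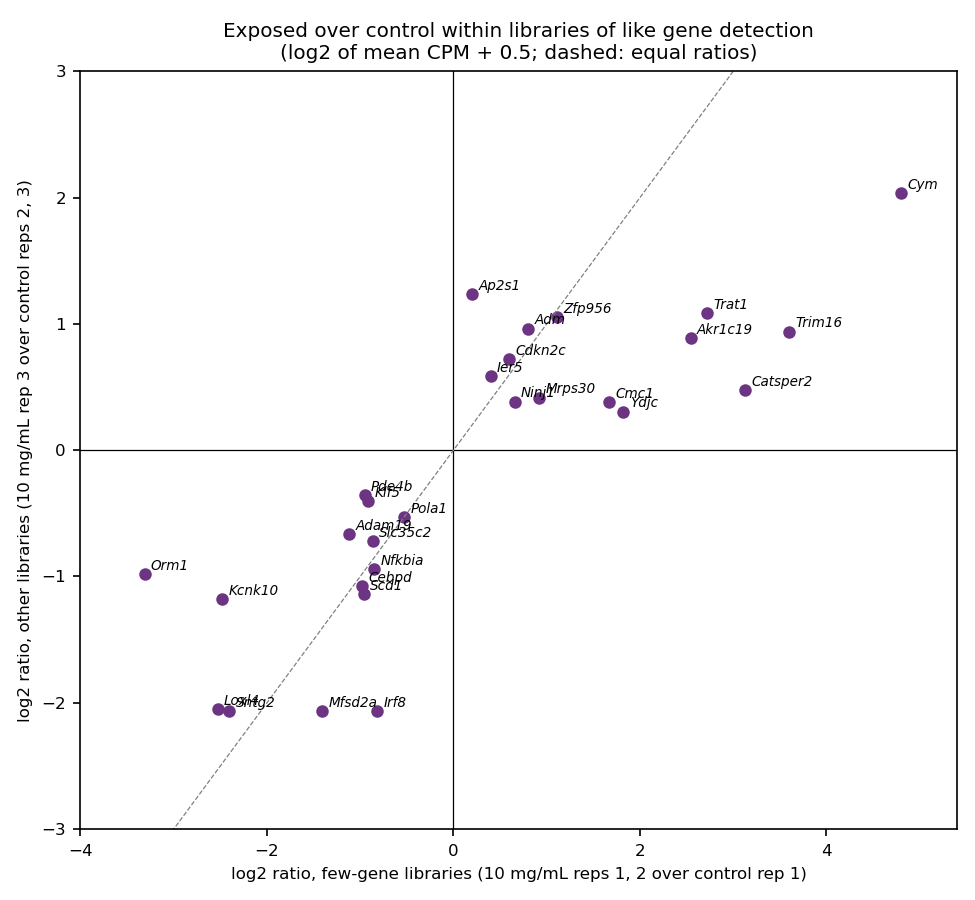
Log2 ratio of exposed over control CPM for 28 genes among the libraries with few detected genes (x axis) and among the others (y axis), with equal ratios on the dashed line. These are the 24 genes chosen without overlap and the other 4 that limma voom called. Cebpd, Nfkbia, Scd1 and Adm lie near the line, and Cmc1, Ydjc, Catsper2 and Trim16 lie well to the right of it.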

How the data were processed

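RNA of rat lung was extracted with Trizol and made into Lexogen QuantSeq libraries, per the labels' protocols. Bowtie2, bedtools and build rn6 are named in the submitters' processing notes. The sources used here give no versions, annotation, filters, strand setting or treatment of multi-mapped reads, so antisense or overlapping genes cannot be told apart. The authors deposited raw counts per gene symbol, 1 file per library. For 149 repeated symbols the line with the highest total was kept.

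Genes were filtered (filterByExpr) and scaled (TMM), and edgeR 4.0.16 (R 4.3.3) fitted 8 group means to 24 libraries by the quasi-likelihood method, with 16 residual degrees of freedom, two-sided tests and Benjamini-Hochberg adjustment over 11421 genes at 0.05. The biological coefficient of variation was 0.335. SE and 95% intervals are from this fit. DESeq2 1.42.0, limma 3.58.1 (voom) and sva 3.50.0 served as alternatives. Floors and counting intervals cover counting error only. The code was tested on simulated data.

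Genes named are 11 fixed ones and those any tool called. The 12 higher and 12 lower genes with the smallest p, no overlap and at least 1 CPM were added. So were up to 3 members per list (37 lists), all tested mast cell members and 3 genes per contrast of doses or days. The members and lists were chosen with earlier results of these data known. Replicate numbers did not pair the libraries. 1 named gene is not reported here.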

Additional observations from a re-analysis of the deposited data

How the results depend on the processing

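For 10 mg/mL against control, limma voom called 5 genes and edgeR with 2 surrogate variables called 1, Zbtb16. Against 20 mg/mL, DESeq2 called 4 genes, and edgeR called 1 (RT1-A2) when the 8 libraries poorest in detected genes were left out, of a gene family whose reads the counting could split. Leaving out the 8 libraries left exposed replicate 3 as the only 6-day library of 10 mg/mL, so every result of that setting rests on it. The causes were not tested. The count stayed at 0 in every other setting run, all removals of single libraries included. The unadjusted count of 308 (54.2% higher) ranged from 156 to 1540 as single libraries were left out. It was 603 with the replicate block (46.6% higher), 171 (44.4%) with the 2 groups alone and 152 (38.2%) without the 8 libraries, and the share of higher genes was 71.1% without control replicate 1 and 40.4% without exposed replicate 1. Same-numbered exposed and control libraries deviated together at 0.422, -0.128 and 0.352 for numbers 1 to 3, which does not pair them, and the replicate block called 0 genes in each of the 4 comparisons.

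Some log2 fold changes turned direction. Limma voom gave -0.0102 for Nqo1, 0.11 for Hmox1 and -0.86 for Cxcl1. The detected-gene covariate gave -0.14 for Sftpc. Surrogate variables gave -0.0168 for Nqo1, -0.0636 for Scgb1a1, -0.16 for Sftpc and -0.26 for Ms4a2. Without the 8 libraries the values were 0.37 for Cyp1a1, -0.48 for Nqo1, -0.78 for Mmp12, -0.26 for Scgb1a1, -0.22 for Sftpc, -0.64 for Serhl2, -0.32 for Cfc1, -0.0834 for Ms4a2 and -0.54 for Oas1a. Those values rest on exposed replicate 3 alone against control replicates 2 and 3. With single libraries left out the ranges were -0.94 to 0.24 for Cyp1a1, -0.14 to 0.17 for Nqo1, -0.56 to 0.0321 for Hmox1, -0.0555 to 0.81 for Tnf, -1.16 to 1.04 for Cxcl1, -0.14 to 0.30 for Scgb1a1, -0.15 to 0.18 for Sftpc, -0.24 to 2.26 for Tpsb2, -0.0693 to 2.16 for Ms4a2 and -0.20 to 0.21 for Serhl2. The cause was not tested. Cebpd stayed between -1.44 and -0.995, Nfkbia between -1.01 and -0.86 and Zbtb16 between 2.12 and 3.97 over 18 alternatives. Depth limits the genes under 1 CPM, whose median SE was 1.29 against 0.24 at 100 CPM or more.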
